A study of Mus musculus with 6 samples.

Results

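The 10 genes examined belong to the mouse sperm head cytoskeleton and were measured in whole testis RNA: the actin-related genes Actl7a, Actl7b, Actl9, Actrt1 and Actrt2, the cylicin genes Cylc1 and Cylc2, the capping protein gene Capza3 and the profilin genes Pfn3 and Pfn4. They were found by gene name in the scanner tables of 6 one-colour arrays, and each had 1 probe, so 10 of 55681 probes and 10 of 35019 gene names were concerned. The testes came from 3 B6.MRLc1 mice and 3 C57BL/6 (B6) mice. B6.MRLc1 is a congenic strain that holds a piece of MRL chromosome 1, which the labels place at 67.97 to 81.63 cM, on the C57BL/6 background. Mice of both strains were 3 months old males, and both had been given one scrotal heat exposure at 43 degrees C for 20 min, with the testes taken 10 days later. Unheated testes were not analysed here, so the comparison is between heated testes of the 2 strains, and each array was taken as 1 mouse.

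As the round spermatid becomes a sperm head, the acrosome is anchored to the nucleus through an actin-rich plate, the acroplaxome, while a skirt of microtubules, the manchette, helps shape the nucleus. The perinuclear theca is the detergent-resistant shell that remains between acrosome, nucleus and plasma membrane, and its rear part, the calyx, is rich in actin-related proteins and cylicins. Male germ cells build these structures partly from their own versions of actin-related proteins, profilins and a capping protein subunit, which other tissues largely lack.

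Promoter sequence is shown for the 5 genes in which a sequence like the cyclic AMP response element was found. They are shown as a description of the sequence, and a link between these letters and the strain differences was not tested. Cylc1 itself had no measured level. Actrt2 and Pfn4, whose fitted differences were below 0 like those of all 8 genes tested, had no such match. Such elements are bound by CREB and CREM factors, and CREM is a known regulator of spermatid genes. RefSeq promoters of GRCm38.p6, from 250 bases before to 50 bases after the gene start, were matched for 8 of the 10 genes, and Capza3 and Cylc2 were not matched. Capitals mark the letters found, and each stretch is written 5′ to 3′ along the gene's own strand.
Actl7a, chr4:56743347-56743424, plus strand: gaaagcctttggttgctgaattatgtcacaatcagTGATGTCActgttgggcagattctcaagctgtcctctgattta
Actl7b, chr4:56741419-56741496, minus strand: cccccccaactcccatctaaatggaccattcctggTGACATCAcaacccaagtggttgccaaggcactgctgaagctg
Actl9, chr17:33432804-33432881, plus strand: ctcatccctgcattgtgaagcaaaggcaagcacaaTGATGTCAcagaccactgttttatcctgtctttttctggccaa
Cylc1, chrX:111110351-111110428, plus strand: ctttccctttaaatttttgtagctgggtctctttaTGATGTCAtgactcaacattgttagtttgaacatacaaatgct
Pfn3, chr13:55415240-55415328, minus strand: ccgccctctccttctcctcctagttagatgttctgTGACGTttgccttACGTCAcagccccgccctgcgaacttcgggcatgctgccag

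TGATGTCA, or TGACATCA on the other strand, was found in 4 of the 8 promoters, and in 3.62% of all 32851 promoters in the table. It began 40 bases before the gene start in Actl7a, 36 in Actl7b, 60 in Actl9 and 32 in Cylc1. TGACGT, or ACGTCA, was found in the Pfn3 promoter alone of the 8, once in each orientation at 61 and 48 bases before the start, and in 7.51% of all promoters. The full palindrome TGACGTCA was in none of the 8 and in 1.79% of all promoters. These letters were chosen after the promoters had been read, so the shares describe the windows and are no test. Actl7a and Actl7b are neighbours on chromosome 4 and are transcribed away from each other.

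On the arrays, 8 of the 10 genes had signal well above background in B6 testes, and all 3 B6.MRLc1 arrays lay below all 3 B6 arrays for each of these 8. Among all genes with a value on every array, 13.8% were separated in that direction and 14.8% in the opposite one. By limma with adjustment over all 25275 genes tested, Actl9, Cylc2 and Pfn3 fell in B6.MRLc1 testes at an adjusted p under 0.05, and none of the 8 rose. All 8 had an unadjusted p under 0.05. The share of all genes at that unadjusted p was not counted, but it was well over 0.05. By limma, the adipocyte marker Adipoq, at an unadjusted p of 0.0452, had an adjusted p of 0.235. Such counts, here and below, are therefore descriptions only. With no filter on dim probes the adjusted p by limma was 0.0735 for Actl9, 0.0674 for Cylc2 and 0.0535 for Pfn3, so that none was called, nor was any of the 6 genes with a value in the authors' deposited log2 table. Of all genes tested 2.62% were called, 2.21% lower and 0.404% higher. Actl7a, Actl7b, Actrt2, Capza3 and Pfn4 had fitted differences below 0 that did not pass the threshold. Of the 8, 7 passed the filter on dim probes through their B6 arrays, the 3 called genes among them. Their direction was thus partly set by the filter. The 3 calls, their direction and the count of separated genes are given as a description.

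The levels below are the log2 of the signal divided by the 75th percentile of the same array, so that 0 is a bright probe and each unit is a doubling. Differences are B6.MRLc1 minus B6 on that scale. A value from an array that was not well above background is printed as the scanner gave it and marks only how high the level could be, so that differences resting on such values have no exact size.

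**Figure D1:**
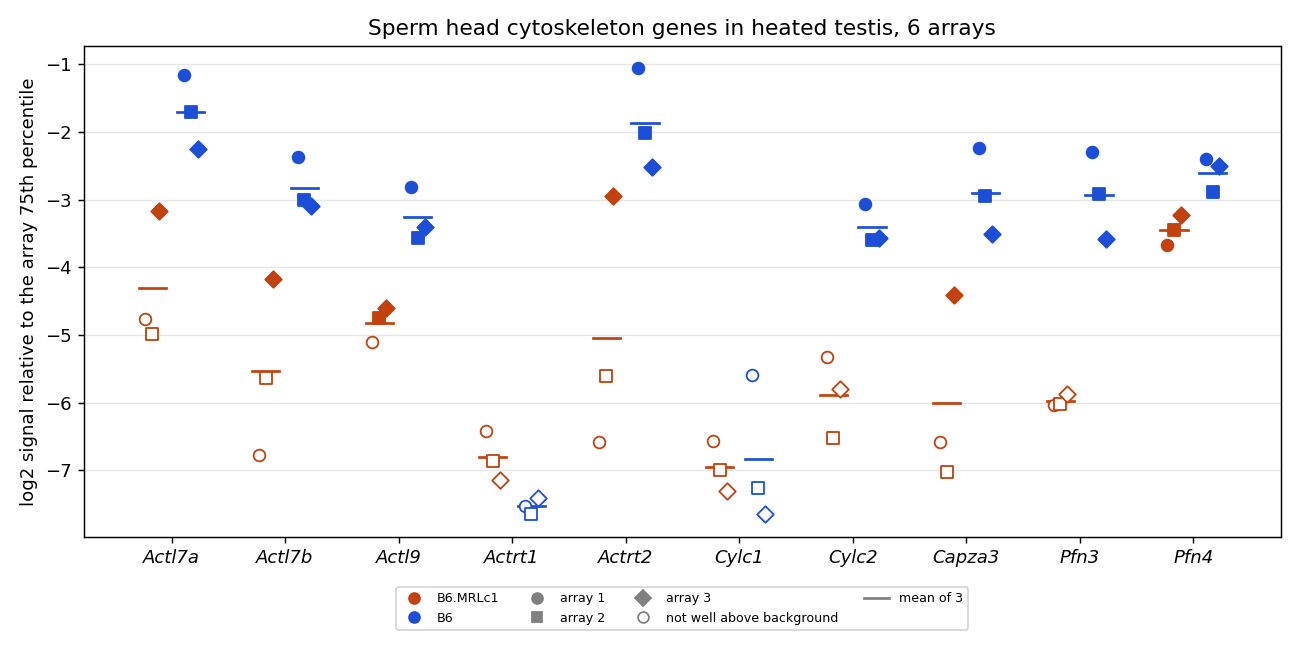
Log2 of the signal over the 75th percentile of its array (y axis) for each sperm head cytoskeleton gene (x axis), 1 point per array, with B6.MRLc1 points left of B6 points and the mean of 3 as a bar. Filled points were well above background and open points were not. For the 8 genes tested every B6.MRLc1 point lies below every B6 point, and Actrt1 and Cylc1 are open on all 6 arrays.

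The actin-related proteins ACTL7A and ACTL9 lie in the perinuclear theca of the sperm head, and in mice loss of Actl7a detaches the acrosome and leaves sperm that fail to activate the egg. Actl7a measured -4.76, -4.99 and -3.17 on B6.MRLc1 arrays 1, 2 and 3, against -1.16, -1.71 and -2.25 on the corresponding B6 arrays. The groups did not overlap, but the highest B6.MRLc1 array came within 1 unit of the lowest B6 array. The means were -4.30 ± 0.99 in B6.MRLc1 and -1.70 ± 0.54 in B6 (± SD, 3 mice each). The fitted difference of -2.60 (SE 0.55) had a limma adjusted p of 0.0750 and did not pass.

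Among the 3 called genes, Actl9 was the one with B6.MRLc1 arrays above background. It measured -5.10, -4.74 and -4.60 on the B6.MRLc1 arrays, against -2.81, -3.56 and -3.40 on the B6 arrays. The 3 B6.MRLc1 values were close together, and the spot was above background on arrays 2 and 3. Actl9 fell by 1.56 (SE 0.23, limma adjusted p = 0.0378), with means of -4.82 ± 0.26 in B6.MRLc1 and -3.26 ± 0.39 in B6 (± SD, 3 mice each). Its probe lies at chr17:33570670-33570729 (build mm9), and the sequence read on the array is given because it is 1 of the 3 called probes.
Actl9 probe: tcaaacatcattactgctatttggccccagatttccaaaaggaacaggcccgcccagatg

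Actl7b encodes a spermatid actin-related protein needed for normal sperm shaping in mice. Its probe, at chr4:56753484-56753543 (mm9), measured -6.77, -5.63 and -4.18 on the B6.MRLc1 arrays, against -2.37, -3.00 and -3.09 on the B6 arrays. The 3 B6.MRLc1 values spread over more than 2 units, and only array 3 was above background. The difference was -2.70 (SE 0.65, limma adjusted p = 0.102).

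Actrt1 and Actrt2 encode ARP-T1 and ARP-T2, which were described as actin-related components of the sperm head calyx. Actrt2 measured -6.59, -5.61 and -2.95 on the B6.MRLc1 arrays, against -1.06, -2.01 and -2.52 on the B6 arrays. B6.MRLc1 array 3 was less than 1 unit below the lowest B6 array, whereas B6.MRLc1 arrays 1 and 2 were not above background. The fitted difference was -3.19 (SE 0.97, limma adjusted p = 0.155), and it was -2.29 with dim values raised to a floor. The X-linked Actrt1 probe stayed near background on all 6 arrays, at 6.55, 5.23 and 4.01 intensity units in B6.MRLc1 and 3.64, 3.24 and 3.43 in B6. Those values give no measured level in either strain.

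Cylicins are basic, repeat-rich proteins of the calyx, and male mice without Cylc2 are infertile. Cylc2 measured 13.9, 6.57 and 10.1 intensity units on the B6.MRLc1 arrays, against 80.3, 53.3 and 49.1 units on the B6 arrays. No B6.MRLc1 array was above background and all 3 B6 arrays were, so the strain difference has only an approximate lower bound. That bound put Cylc2 2.88-fold higher in B6. It takes, for each B6.MRLc1 array, the higher of the probe's own signal and the lowest signal well above background. A probe not above background can exceed that lowest signal, as Actl7a did on B6.MRLc1 array 2 (-4.99 against -5.01), so the bound is not strict. The measured means were -5.88 ± 0.60 in B6.MRLc1 and -3.41 ± 0.30 in B6 (± SD, 3 mice each), and limma gave an adjusted p of 0.0305. The probe lies at chr4:51242303-51242362 (mm9) and is shown as the second called probe.
Cylc2 probe: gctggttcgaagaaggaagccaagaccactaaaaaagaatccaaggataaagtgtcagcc

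For Cylc1, the X-linked cylicin gene, all 6 arrays were near background. Its intensities were 5.91, 4.74 and 3.57 units in B6.MRLc1 and 13.9, 4.23 and 2.89 units in B6. B6 array 1 held the highest value and B6 array 3 the lowest, so the groups overlapped and no level was measured.

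Capza3 encodes the alpha subunit that male germ cells use in the capping protein of actin filament barbed ends. Its probe, at chr6:139990904-139990963 (mm9), measured -6.57, -7.02 and -4.40 on the B6.MRLc1 arrays, against -2.23, -2.95 and -3.51 on the B6 arrays. As for Actl7b and Actrt2, B6.MRLc1 array 3 was the highest of its group and the only one above background. The difference was -3.10 (SE 0.74, limma adjusted p = 0.0992).

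Many profilins bind actin monomers, and Pfn3 and Pfn4 are the profilin genes of male germ cells. PFN3 has been placed at the acroplaxome and manchette, and in mice loss of Pfn4 disturbs acrosome formation and manchette shape. Pfn3 measured 8.52, 9.30 and 9.59 intensity units on the B6.MRLc1 arrays, against 135.9, 85.2 and 48.6 units on the B6 arrays. As for Cylc2, no B6.MRLc1 array and all B6 arrays were above background, and the same approximate bound puts B6 4.01-fold higher. The measured means were -5.98 ± 0.09 in B6.MRLc1 and -2.93 ± 0.64 in B6 (± SD, 3 mice each), with a limma adjusted p of 0.0211, the lowest of the 8. The probe, at chr13:55516133-55516192 (mm9), is shown as the third called probe.
Pfn3 probe: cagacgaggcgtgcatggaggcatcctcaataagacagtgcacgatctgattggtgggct

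Pfn4 was the one gene of the 10 measured above background on all 6 arrays. It measured -3.67, -3.45 and -3.22 on the B6.MRLc1 arrays, against -2.40, -2.89 and -2.51 on the B6 arrays. The spread within each strain was small, and the gap between the groups was less than 1 unit. The means were -3.45 ± 0.22 in B6.MRLc1 and -2.60 ± 0.26 in B6 (± SD, 3 mice each), a 1.80-fold difference that did not pass (SE 0.17 on the log2 scale, limma adjusted p = 0.0680). The Pfn4 probe is shown because it alone gives a measured level in every testis. It is 60 bases long, and the array annotation spreads it over 950 bases of the genome, chr12:4781284-4782233 (mm9).
Pfn4 probe: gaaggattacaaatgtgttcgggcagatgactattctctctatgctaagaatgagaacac

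For Actl7a, Actl7b, Actrt2 and Capza3, B6.MRLc1 array 3 was the one array of its strain above background. The size of its excess over arrays 1 and 2 is therefore known only as an approximate bound, with each dim value raised to the lowest signal well above background on its array where that was higher. By that bound array 3 exceeded the mean of arrays 1 and 2 by 1.80 units for Actrt2, 1.57 for Actl7a, 0.57 for Actl7b and 0.35 for Capza3. Pfn4, measured on all 3 arrays, had an excess of 0.33. For Actl9, above background on arrays 2 and 3, the same bound was 0.008. For Pfn3 and Cylc2 none of the 3 arrays was above background, so that a difference among those testes could not have been seen for them.

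**Figure D2:**
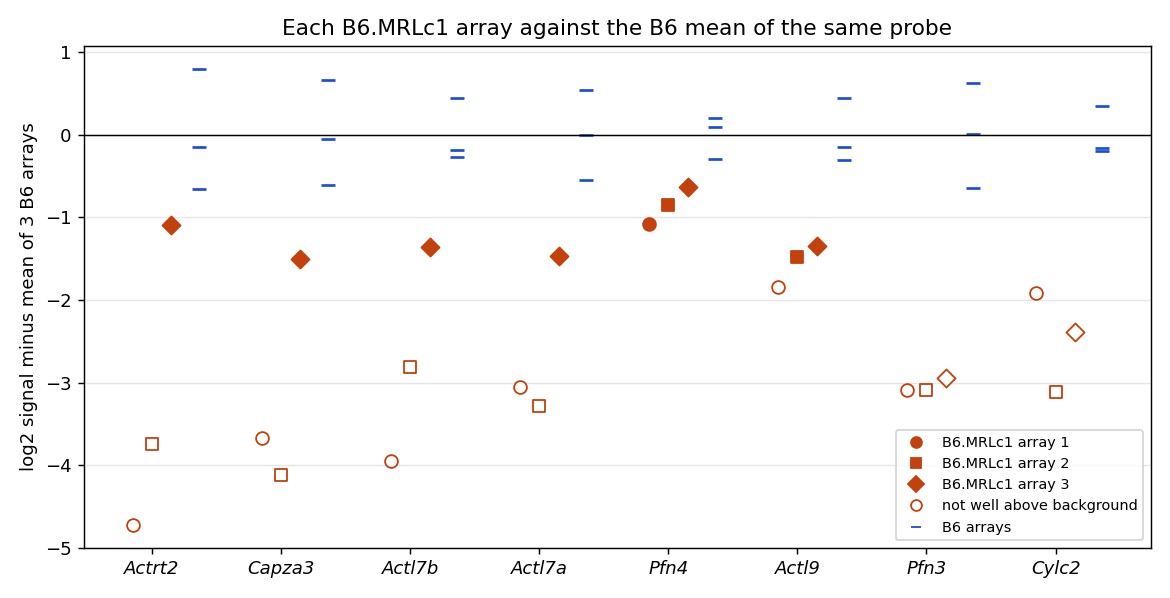
Log2 signal of each B6.MRLc1 array minus the mean of the 3 B6 arrays (y axis, log2) for the 8 genes tested (x axis), 1 point per array, with blue dashes for the B6 arrays. Open points were not well above background and mark only how high the level could be, and for Actrt2, Capza3, Actl7b and Actl7a array 3 is the one filled point.

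Where a B6.MRLc1 array was above background, its signal was also set against the geometric mean of the B6 arrays. On array 3 it was 46.9% of that mean for Actrt2, 39.3% for Actl9, 39.1% for Actl7b, 36.3% for Actl7a and 35.2% for Capza3. Actl9 on array 2 was 35.8%, close to its array 3. Pfn4 was 47.5%, 55.6% and 64.8% on arrays 1, 2 and 3. Within B6, array 1 was the highest for all 8 genes, by 0.30 for Pfn4 to 1.20 for Actrt2 over the mean of arrays 2 and 3. Without B6.MRLc1 array 3, limma called 5 of the 8 genes lower, Actl7a, Actl7b, Actrt2, Capza3 and Pfn3, and no longer called Actl9 and Cylc2, where 1.17% of all genes were called lower. Without B6.MRLc1 array 1 or 2, or B6 array 2, none of the 8 was called, although 7 or 8 had an unadjusted p under 0.05. Of all genes, 0.289%, 0.194% and 0.625% were called lower in those fits. Without B6 array 1 or 3 only Pfn3 was called, where 0.166% and 1.57% of all genes were called lower.

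Many of these signals were dim. B6.MRLc1 arrays 1, 2 and 3 had 58.0%, 62.1% and 64.7% of their spots well above background, against 68.5%, 69.0% and 68.7% on the B6 arrays. The additive error estimate of the scanner software was 5.68, 4.45 and 3.38 intensity units in B6.MRLc1, against 3.14, 2.81 and 2.66 units in B6. Of the 8 genes, 7 were not above background on B6.MRLc1 array 1, 6 on array 2 and 2 on array 3. The part of array background in the differences was not tested beyond the other background treatments. With normexp background correction, which draws dim values together, the difference was -1.29 for Actl7a, -0.94 for Actl7b, -0.42 for Actl9 and -1.24 for Actrt2. It was -0.53 for Cylc2, -0.92 for Capza3, -0.88 for Pfn3 and -0.33 for Pfn4. Actl7a, Actl7b, Cylc2 and Pfn3 were called on that scale, where 2.42% of all genes were called lower. All 3 B6 arrays lay in one row of a single slide and all 3 B6.MRLc1 arrays in the other, so that the row and the strain cannot be told apart.

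**Figure D3:**
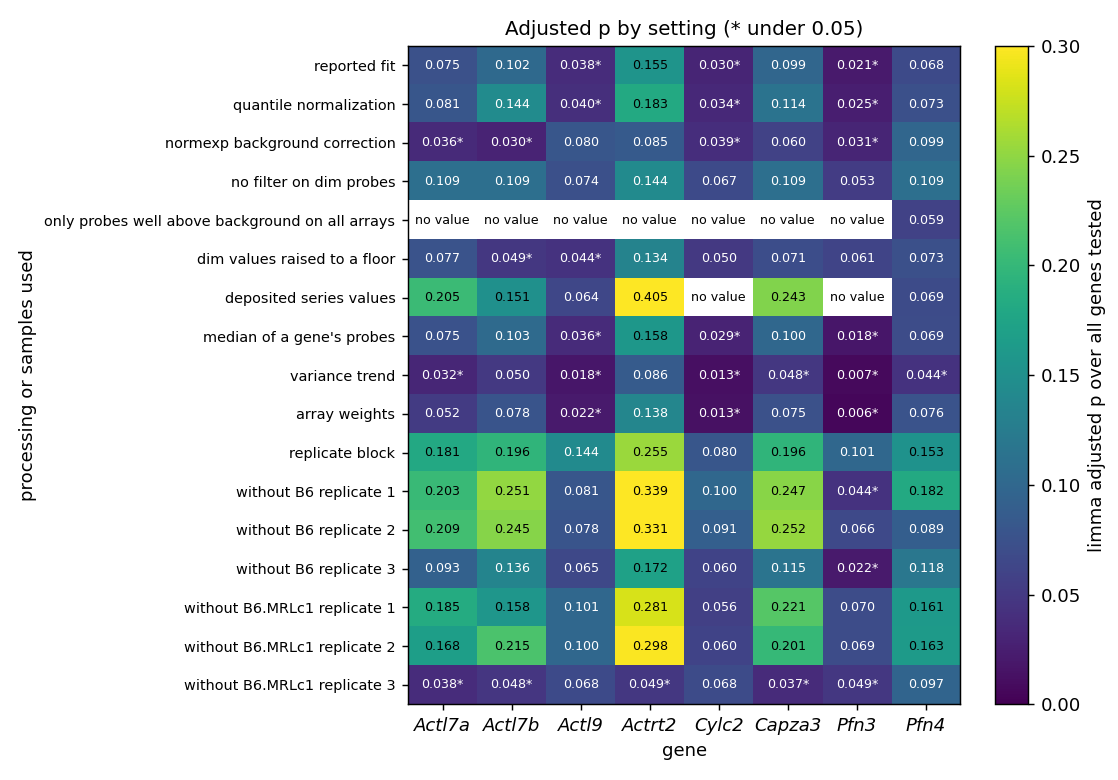
Limma adjusted p over all genes tested (colour) for each gene (x axis) under each processing setting or with 1 array left out (y axis), with a star where it is under 0.05. Pfn3 has a star under the main setting and 8 of its 14 alternatives with a value, and Pfn4 under the variance trend only.

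In the reported fit, the relatives of these genes that all cells use had smaller differences. Of 8 such genes, all above background on all 6 arrays, none was called by limma and 1, Pfn2, had an unadjusted p under 0.05, and their differences ran from -0.46 for Actb to 0.20 for Pfn2. Pfn1, the general profilin, averaged 1.54 ± 0.03 in B6.MRLc1 and 1.60 ± 0.04 in B6 (± SD, 3 mice each). Capza2, a capping protein alpha subunit, averaged 2.32 ± 0.09 in B6.MRLc1 and 2.26 ± 0.12 in B6 (± SD, 3 mice each). Capza1 differed by 0.07, Capzb, the beta subunit, by 0.07, cytoplasmic gamma actin Actg1 by 0.10 and Actl6a, an actin-related subunit of chromatin remodelling complexes, by -0.04. The single Actb probe measured 8.08, 6.57 and 8.09 on the B6.MRLc1 arrays, against 8.02, 8.03 and 8.09 on the B6 arrays. Its difference rests on B6.MRLc1 array 2 alone. With normexp background correction the order did not hold for every gene. Actb then differed by -0.48, against -0.42 for Actl9 and -0.33 for Pfn4.

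Ratios of a germ cell gene to such a relative on the same array, in which array scaling cancels, were compared between the strains for 7 pairs. The strain difference of the log2 ratio of Pfn4 to Pfn1, both above background on all arrays, was -0.79, with all 3 B6.MRLc1 testes below all 3 B6 testes. Its two-sided exact permutation p was 0.1, the smallest that 3 against 3 allows, and also 0.1 adjusted over the 7. The other 6 pairs had a germ cell probe that passed the filter through its B6 arrays, so their separation was partly set by the filter and no test is given. As fitted values with no exact size, the differences were -3.16 for Capza3 to Capza2 and -2.98 for Pfn3 to Pfn1. Against Actg1, used because 1 Actb value stood apart, they were -2.70 for Actl7a, -2.80 for Actl7b, -1.65 for Actl9 and -3.29 for Actrt2.

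**Figure D4:**
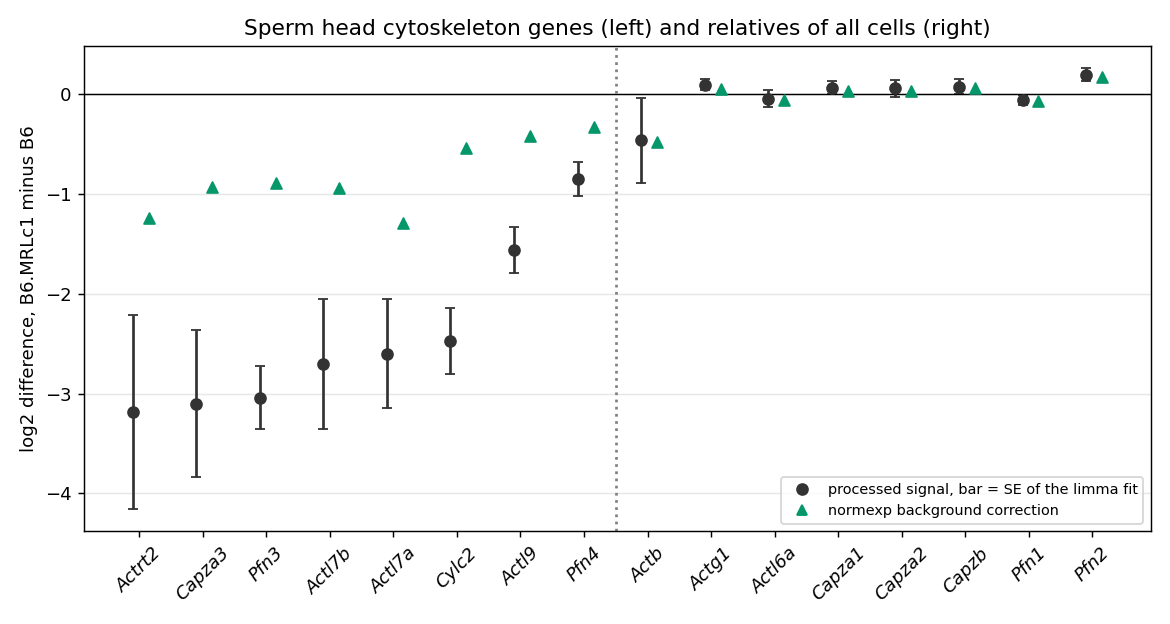
Log2 difference, B6.MRLc1 minus B6 (y axis), with its standard error from limma as a bar, for the 8 sperm head cytoskeleton genes tested (left) and 8 relatives used by all cells (right). The left genes run from -3.19 to -0.85 and the right genes from -0.46 to 0.20. Triangles give the difference with normexp background correction. Left differences other than that of Pfn4 rest partly on dim values and have no exact size.

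The wider actin machinery had 50 genes tested, with a median difference of 0.01, against 0.02 over all genes and -2.65 over the 8 sperm head genes. The -2.65 rests mostly on dim B6.MRLc1 values and has no exact size. With normexp background correction it was -0.90, against 0.04 over all genes. Pfn4, above background on all 6 arrays, differed by -0.85 in the reported fit and by -0.33 with that correction. Of the 50 actin machinery genes, 1 was called: Tmsb10, a thymosin that binds actin monomers, fell by 0.34 (SE 0.05, limma adjusted p = 0.0390), at 3.79 ± 0.04 in B6.MRLc1 and 4.13 ± 0.02 in B6 (± SD, 3 mice each). Actn4, an actinin that crosslinks filaments, differed by 0.22 and Pfn2 by 0.20, with adjusted p of 0.118 and 0.183 by limma.

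Other genes of the perinuclear theca, acroplaxome and acrosome had 30 tested, of which 8 were called lower and none higher, with a median difference of -0.46. Over all genes tested 2.21% were called lower. Spata46, of the spermatid nucleus and head, had no B6.MRLc1 array above background, and its approximate bound puts B6 9.43-fold higher (limma adjusted p = 0.0117). It lies on chromosome 1, the chromosome that carries the MRL segment, and an effect of MRL sequence on the probe cannot be told apart from a change in RNA. Plcz1, the sperm phospholipase that activates the egg, was 1.83-fold higher in B6 by the same approximate bound (limma adjusted p = 0.0215), and was not called with normexp correction. Spaca7, an acrosomal protein gene, fell by 2.34 (SE 0.26, limma adjusted p = 0.0230), at -4.59 ± 0.23 in B6.MRLc1 and -2.24 ± 0.48 in B6 (± SD, 3 mice each). Only 1 of its B6.MRLc1 arrays was above background, and the difference was -1.04 with normexp correction. The other 5 called genes, Dkkl1, Spaca3, Zpbp2, Tmem190 and Fam209, are named after their values were seen. Dkkl1 and Zpbp2, both of the acrosome, were above background on all 6 arrays and fell by 1.98 and 1.36. Tmem190, Spaca3 and Fam209 were above background on 0, 1 and 2 of the 3 B6.MRLc1 arrays. Apart from Dkkl1 and Zpbp2, the called genes of this list passed the filter on dim probes through their B6 arrays. Their direction was thus partly set by the filter, and the count called is a description. With B6.MRLc1 array 1, 2 or 3 left out, 1, 1 and 6 of the 30 were called, and with B6 array 1, 2 or 3 left out, 1, 3 and 3. The shares of all genes called lower in those fits are given above.

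Genes of the manchette and spermatid nuclear envelope had 28 tested, of which 3 were called lower and none higher, with a median difference of -0.13. The share called lower over all genes was 2.21%. Spag16, an axoneme gene that also lies on chromosome 1, fell by 1.10 (SE 0.15, limma adjusted p = 0.0342), and whether its probe lies in the MRL segment was not analysed here. Sun3, a nuclear envelope protein gene that links to the manchette, fell by 2.10 (SE 0.30, limma adjusted p = 0.0364), with 1 of 3 B6.MRLc1 arrays above background and a difference of -0.82 with normexp correction. Spag4, also called Sun4, a partner of Sun3 in the spermatid nuclear envelope, fell by 0.98 (SE 0.15, limma adjusted p = 0.0425). None of the 3, and not Tmsb10, was called with any 1 of the 6 arrays left out.

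Whole testis RNA was measured, so fewer spermatids and less RNA per spermatid cannot be told apart. Of 9 round spermatid markers, none was called by limma, 8 had an unadjusted p under 0.05 and 8 had differences below 0, with a median of -2.07. The exception, Spaca1, differed by 0.02 (limma adjusted p = 0.939). Of the 9, 7 were above background on all 6 arrays, Spaca1 among them. The score of the 9 markers, the median over genes of the log2 signal minus the gene's mean over 6 arrays, was -1.55, -1.65 and -0.36 on B6.MRLc1 arrays 1, 2 and 3, against 1.86, 0.87 and 0.55 on the B6 arrays. The same score over the 8 sperm head genes was -1.66, -1.72 and -0.18 in B6.MRLc1 and 1.82, 1.23 and 0.91 in B6. Both scores were highest in B6.MRLc1 array 3 and in B6 array 1 within their strains.

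Spermatocyte markers had a median difference of -0.57, with 1 of 6 called lower, Ldhc, the lactate dehydrogenase of germ cells, and 4 at an unadjusted p under 0.05. The 6 were far apart. Ldhc differed by -3.18, Piwil1 by -2.27 and Pgk2 by -0.91, against -0.23 for Hspa2, -0.02 for Sycp1 and -0.02 for Sycp3. For Piwil1, 2 of the 3 B6.MRLc1 arrays were above background. Spermatogonium markers had a median of 0.07 and Sertoli cell markers of 0.11, with none of 6 and none of 7 called by limma (0 and 2 at an unadjusted p under 0.05), and all 7 Sertoli markers were above background on all arrays of tissue labelled testis. In the Leydig, peritubular myoid and macrophage lists none of 5 was called in each, and 2, 1 and 0 had an unadjusted p under 0.05. Adipocyte markers had a median difference of 1.06 with none of 4 called and 3 at an unadjusted p under 0.05, and their score was -0.07 to 1.02 in B6.MRLc1 and -1.12 to -0.17 in B6, so that it moved with strain. One further adipocyte marker and 3 of 5 epididymis markers were not above background on any array. Of the 2 epididymis markers tested, Defb30 was called lower (limma adjusted p = 0.0451), with no B6.MRLc1 array above background and too dim in B6 for a fold. Of 2 red cell markers, Alas2, the haem synthesis enzyme of red cell precursors, fell by 1.04 (SE 0.07, limma adjusted p = 0.00872), at 1.47 ± 0.02 in B6.MRLc1 and 2.51 ± 0.09 in B6 (± SD, 3 mice each). The globin gene Hba-a1 differed by 0.81 and was not called. The part of cell composition in the differences of the sperm head genes was not tested.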

How the data were processed

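Per the labels' protocols, total RNA of each testis was labelled with Cy3 and put on a one-colour Agilent array. The deposited tables give 1 linear intensity per spot, background-subtracted and detrended per the file headers, with 0 or 1 flags for spots well above background. Feature Extraction 10.7.3.1 and genome build mm9 stand in the file headers, and the submitters' processing notes name version 9.5.3. The authors' deposited series table holds log2 values and was used as an alternative, and how it was made is not stated in the labels or headers.

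Control and outlier spots were left out, log2 intensity was taken relative to each array's 75th percentile, which ran from 556.8 to 669.8 units, and spots of a probe were averaged. No spot was saturated. A probe was kept with values on at least 4 arrays and over 0.5 of its spots above background on at least 3. For each gene the kept probe with the highest mean was fitted with limma 3.58.1 in R 4.3.3 (lmFit and eBayes), adjusted by Benjamini-Hochberg over 25275 genes and called under 0.05. The procedure was tested on simulated data.

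The genes and lists were chosen with earlier results of these data known. In each list the 3 genes with the smallest p were named, plus every relative used by all cells and the 5 genes with the most similar profile. All arrays shared 1 slide and 1 scan. Nothing says more than that the arrays are separate mice, and 3 per strain limits the precision.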

Additional observations from a re-analysis of the deposited data

How the results depend on the processing

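The 8 genes tested were below 0 in B6.MRLc1 testes under every one of the 16 alternatives that gave a value, and none reversed. The number called lower, 3 as reported, was 0 with no filter on dim probes, where 0.109% of all genes were called lower. It was 0 with only probes above background on all arrays, where Pfn4 alone had a value and 1.79% of all genes were called lower. With the deposited series values it was 0, with 5 of 6 at an unadjusted p under 0.05 and 1.38% of all genes called lower. A variance trend gave 6, where 3.46% of all genes were called lower. With 1 array left out, 0 to 5 of the 8 were called lower, where 0.166% to 1.57% of all genes were. All genes called, 661 as reported, were then 50 to 482. All genes called were 50 with no filter, 1202 with the trend and 2313 with array weights. The genes' median difference of -2.65 was -0.90 with normexp correction, -0.85 with only probes above background on all arrays, -1.74 with dim values raised to a floor, -1.39 with the deposited values, and -3.13 to -2.40 with 1 array left out. With the floor, Actl9 and Actl7b were called, and Cylc2 (limma adjusted p = 0.0504) and Pfn3 (0.0613) were not. The cause of these changes was not tested.

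Called genes of the theca and acroplaxome list, 8 as reported, were 1 with no filter, 2 with only probes above background on all arrays, 2 with the deposited values and 1 to 6 with 1 array left out. Those of the manchette list, 3 as reported, were 0 with no filter, 6 with normexp correction, 5 with the floor, 7 with the trend, 6 with array weights and 0 to 1 with 1 array left out. Those of the general actin list, 1 as reported, were 0 with no filter, 0 with the median of a gene's probes, 2 with the trend, 2 with array weights and 0 with 1 array left out. Over all genes, 2.42% were called lower with normexp correction, 1.47% with the floor, 3.46% with the trend and 5.67% with array weights.

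The replicate number, which is also the slide column, was fitted as a block. Same-numbered arrays had correlations of deviations of -0.04, 0.17 and 0.09 across genes, and B6.MRLc1 array 1 correlated best with B6 array 3, so that the numbers were not taken to pair the mice. With the replicate block no gene was called: 0 of all genes, 0 of the 8 sperm head genes, all with an unadjusted p under 0.05, and 0 in the theca, manchette and general actin lists. Actl9, Cylc2 and Pfn3 then had limma adjusted p of 0.144, 0.0799 and 0.101, with the same differences.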

Other observations

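The genes outside the set whose centred profile over the 6 arrays lay closest to the median profile of the 8 sperm head genes were AI507597, Gsg1, Spata3, Tex35 and Gm6760, with root mean square differences of 0.14, 0.14, 0.16, 0.18 and 0.19 on the log2 scale. Gsg1, a germ cell gene, was above background on all 6 arrays. It measured -2.14, -2.26 and -0.70 on the B6.MRLc1 arrays, against 1.48, 0.60 and 0.17 on the B6 arrays. Array 3 was the highest B6.MRLc1 array and array 1 the highest B6 array, the order seen for Actrt2 and Actl7a. The difference of Gsg1 was -2.45 (SE 0.53, limma adjusted p = 0.0787). Of the 5 genes, Tex35 was called (limma adjusted p = 0.0499), with no B6.MRLc1 array above background. These genes were picked for their likeness, so their values are a description.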
